A study of Arabidopsis thaliana with 6 samples.

Results

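The nuclear pore complex genes described here were the 30 Arabidopsis thaliana genes for nucleoporins of the outer ring, the inner ring, the central channel, the pore membrane and the cytoplasmic face, without those of the nuclear basket. They were picked by locus identifier from the 30865 genes of the deposited count table, and all 30 had a row there and in the table of FPKM (fragments scaled to transcript length and library size). Messenger RNA was sequenced from whole 9-day-old seedlings grown with 1% sucrose and without treatment, in 3 libraries of nup50c mutants and 3 libraries of wild-type Col-0. The mutant allele, the number of lines behind it and whether the 3 libraries of a genotype came from separate plantings are not given in the labels, so a p-value speaks for the spread among the libraries at hand, which may be technical.

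The pore complex is a ring-shaped assembly that spans the nuclear envelope and carries proteins and RNA between nucleus and cytoplasm. Its scaffold is built from an outer ring, whose core is the Y-shaped NUP107-NUP160 complex, and an inner ring of NUP93, NUP155, NUP188, NUP205 and NUP35. Membrane nucleoporins anchor the scaffold, nucleoporins rich in phenylalanine-glycine (FG) repeats fill the channel, and filaments on the cytoplasmic side take part in messenger RNA export. NUP50 proteins belong to the basket on the nucleoplasmic side and bind importin alpha, and NUP50C is not among the 30 genes. In Arabidopsis, scaffold mutants are known for altered flowering, auxin response, cold response and immunity.

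The libraries held between 33273007 and 36984121 counts in nup50c and between 35116694 and 39574236 counts in Col-0. NUP50C itself had 469, 376 and 336 counts in nup50c, against 1255, 1100 and 1142 counts in Col-0 (log2 fold change −1.49, SE 0.15, adjusted p = 0.0029), so transcript was still counted in each mutant library. The adjusted p is from edgeR's quasi-likelihood F test with Benjamini-Hochberg adjustment over 21158 genes, and a gene is called here where it is under 0.05. The leaf genes RBCS1A, LHCB1.3 and CA1 and the root genes EXPA7, COBL9, PHT1;1 and CASP1 were counted in all 6 libraries. The seed protein gene SESA1 and the flower genes AP1 and AG had 0 counts in all 6, the seed protein gene CRA1 had 95 counts in Col-0 replicate 3 alone and the flower gene AP3 had 21 counts in nup50c replicate 3 alone. None of the leaf and root genes was called, though CA1 came close (log2 fold change 0.43, edgeR adjusted p = 0.052). The other leaf genes, LHCB1.3 and RBCS1A, had −0.24 and −0.035.

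All 30 nucleoporin genes passed the filter on low counts, and 1 of them, the inner ring gene NUP188, was called higher in nup50c, while 0 were called lower. Over all genes tested, 1.12% were called higher (236) and 1.17% lower (247), and 1 call among 30 genes is too few to tell apart from that background. At an unadjusted p under 0.05, 3 of the 30 were higher (NUP188, NUP205 and GP210) and 1 was lower (SEC13A), against 8.66% and 7.98% of all genes. DESeq2 called 2 higher (NUP188 and NUP205), but over all genes it also called more, 662 higher and 595 lower. Limma on the FPKM values called 0 in either direction, beside 1.34% of all genes higher and 1.38% lower. Counts of one gene, NUP98A, could not be used as they stand and its FPKM values stand in for them, as described with the channel genes. For the other 29, the 95% interval of every fold change lay within 1.5-fold of no change, and for 13 of the 29 it lay within ±0.322 on the log2 scale. In whole-seedling RNA, fewer cells of a type and less RNA per cell cannot be told apart.

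**Figure D1:**
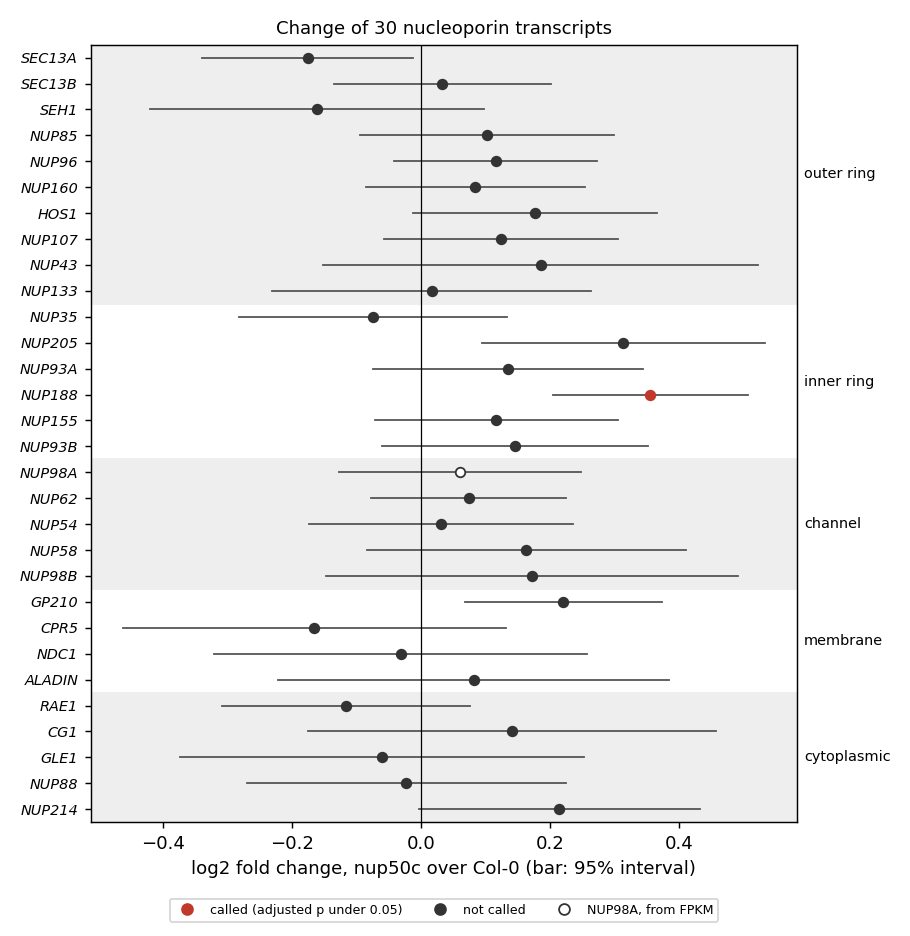
Log2 fold change of each of the 30 nucleoporin genes, nup50c over Col-0, with its 95% interval as a bar; genes run down the page by position in the pore and, within it, by level. The red point is NUP188, the 1 gene called at an adjusted p under 0.05, and the open point is NUP98A, which comes from the FPKM fit.

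Read per length, the 30 transcripts differed in level by 14.7-fold. SEC13A, a β-propeller shared between the Y complex and the COPII coat of secretory vesicles, was the most abundant, with a mean of 40.9 FPKM over the 6 libraries, and its paralog SEC13B followed with 35.2 FPKM. NUP98A (26.4 FPKM) and the inner ring linker NUP35 (23.2 FPKM) came next, and their ranges over the libraries overlapped. At the low end were NUP133 (5.26 FPKM), a stalk protein of the Y complex, the cytoplasmic filament gene NUP214 (4.63 FPKM) and the second NUP98 gene, NUP98B (2.78 FPKM). From RAE1 (19.1 FPKM) down to ALADIN (6.84 FPKM) each gene's range over the 6 libraries overlapped that of the next. Of the 29 pairs of neighbours in the whole order, 24 overlapped and 5 did not, namely SEC13A and SEC13B, SEC13B and NUP98A, NUP35 and RAE1, ALADIN and NUP133, and NUP214 and NUP98B. Summed over the 30 genes, the FPKM values came to 399.8, 412.6 and 390.2 in nup50c, against 383.0, 380.2 and 392.2 in Col-0. The lowest nup50c sum lay under the highest Col-0 sum, so the groups overlapped.

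**Figure D2:**
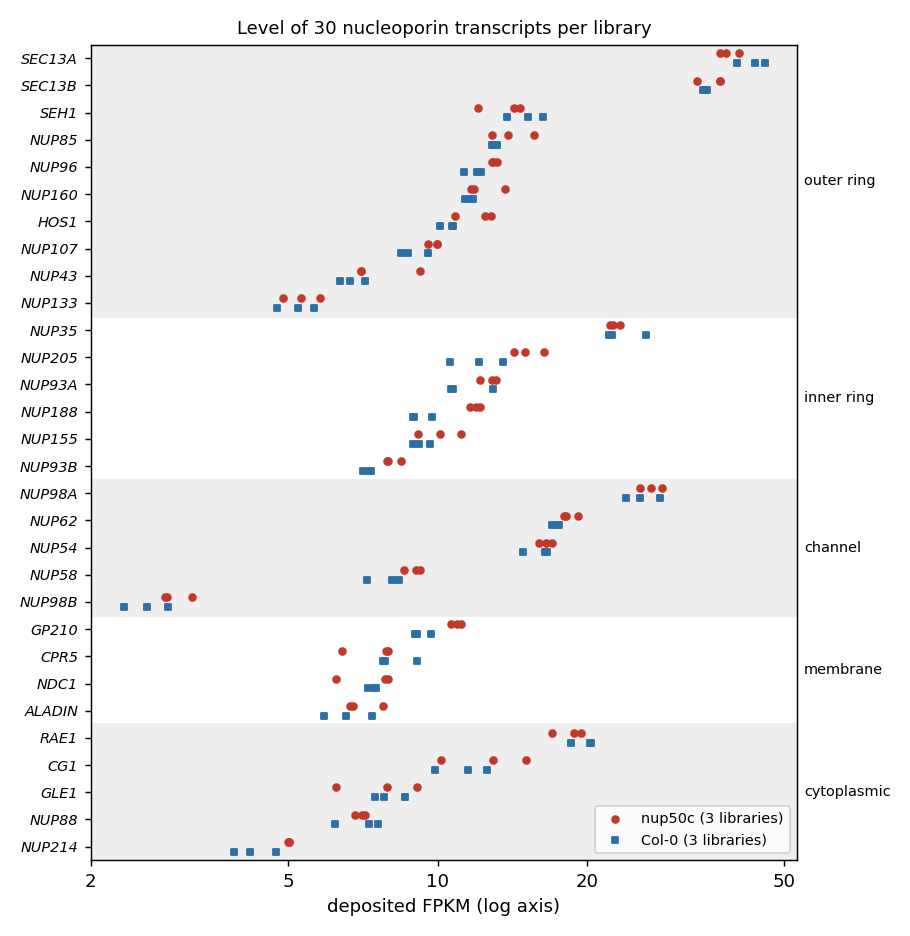
Deposited FPKM of the 30 nucleoporin genes in each library on a log axis, with nup50c as red circles and Col-0 as blue squares, by position in the pore. SEC13A and SEC13B stand at the top of the range and NUP98B at the bottom, and for most genes the libraries of the 2 genotypes lie within one another.

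The highest log2 fold changes were those of the inner ring genes NUP188 and NUP205. The other inner ring genes lay between −0.075 and 0.145, below the membrane gene GP210 (0.22) and the cytoplasmic gene NUP214 (0.21). NUP188 (AT4G38760) encodes one of the big scaffold proteins of this ring; the gene lies at chr4:18084652-18096218 on the minus strand in TAIR10.1 and has 32 exons. It had 79.9, 83.4 and 83.8 CPM (counts scaled to library size by the trimmed mean of M values) in nup50c, against 62.3, 62.4 and 68.5 CPM in Col-0. Every nup50c library was above every Col-0 library. NUP188 rose 1.28-fold, with means of 82.4 ± 2.11 CPM in nup50c and 64.4 ± 3.58 CPM in Col-0 (SD, n = 3 each; log2 fold change 0.36, SE 0.067, edgeR adjusted p = 0.032). The call rested on all but one of the libraries: the adjusted p was 0.067, 0.12 and 0.059 without nup50c replicate 1, 2 or 3, 0.16 and 0.13 without Col-0 replicate 1 or 2, and 0.039 without Col-0 replicate 3. Over all 17 other settings it ran between 0.00086 and 0.19 and was under 0.05 in 6. Limma on the FPKM values gave 0.083.

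NUP205 (AT5G51200, chr5:20804715-20819629, plus strand, 45 exons), the related large scaffold gene, had 93.4, 106.3 and 100.3 CPM in nup50c, against 80.7, 70.2 and 90.5 CPM in Col-0. Its groups did not overlap either, but the Col-0 libraries were spread more widely and the difference was not called (log2 fold change 0.31, SE 0.097, edgeR adjusted p = 0.15, with 0.047 to 0.50 over the other settings). Of the paralogs NUP93A and NUP93B, which link the ring to the channel, NUP93B had 25.3, 24.9 and 27.3 CPM in nup50c, against 23.5, 22.7 and 23.9 CPM in Col-0. NUP93A had 54.4, 54.9 and 52.3 CPM in nup50c, against 46.0, 45.4 and 55.8 CPM in Col-0, where replicate 3 reached above all mutant libraries. Their log2 fold changes were 0.135 for NUP93A (SE 0.092, edgeR adjusted p = 0.53) and 0.145 for NUP93B (SE 0.091, adjusted p = 0.49). NUP155, which contacts the membrane, had a log2 fold change of 0.116 and NUP35 one of −0.075, and none of these 4 was called. The median log2 fold change of the 6 inner ring genes was 0.140, with 5 above 0, against −0.003 over all genes tested. The all-gene median is not matched for transcript length, which is taken up below.

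**Figure D3:**
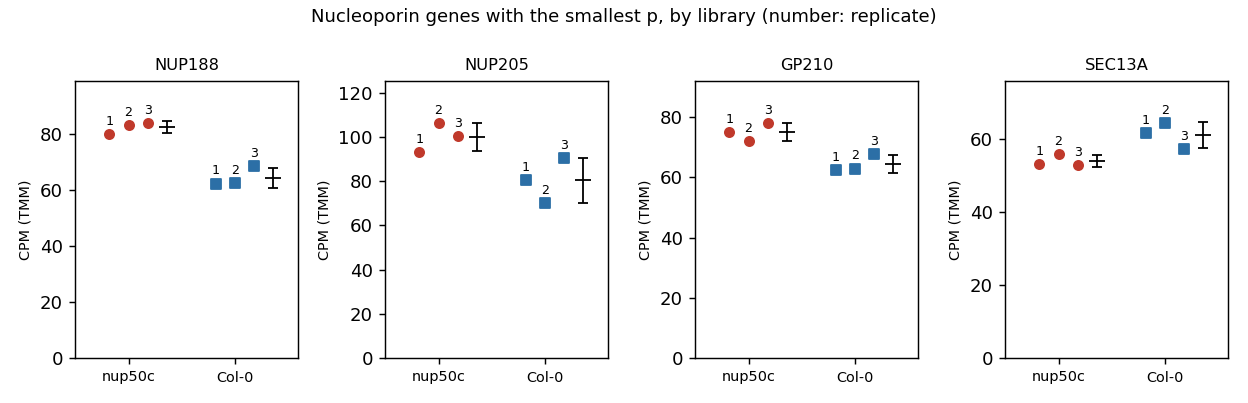
CPM of the 4 nucleoporin genes with the smallest p in each library, nup50c left and Col-0 right; numbers give the replicate and the bars the mean ± SD of 3 libraries. NUP188, NUP205 and GP210 were above Col-0 in all 3 nup50c libraries and SEC13A was below it, and NUP188 alone was called.

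Among the 10 outer ring genes, 8 had a log2 fold change above 0 and 2 below, with a median of 0.093, and none was called in either direction. NUP96, a Y complex core gene also known from plant immunity and auxin response, had 54.3, 53.9 and 56.5 CPM in nup50c, against 52.3, 48.1 and 51.7 CPM in Col-0. HOS1, a RING-finger ubiquitin ligase at the pore known from cold response and flowering, had 44.4, 45.1 and 39.4 CPM in nup50c, against 36.5, 38.4 and 39.2 CPM in Col-0. Neither gene's groups overlapped, yet the differences were small (log2 fold change 0.115, adjusted p = 0.47 for NUP96 and 0.177, adjusted p = 0.34 for HOS1, edgeR). The other Y complex genes NUP160, NUP107, NUP133, NUP85 and NUP43 had log2 fold changes between 0.016 (NUP133) and 0.185 (NUP43), and their groups overlapped.

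The values below 0 in the outer ring were those of SEC13A and SEH1. SEC13A (AT3G01340, chr3:127303-128994, minus strand, 2 exons) had 53.2, 56.0 and 52.9 CPM in nup50c, against 61.7, 64.3 and 57.1 CPM in Col-0. The CPM values did not overlap, whereas in FPKM the highest nup50c library (40.5) lay above the lowest Col-0 library (40.1). On the log2 scale the difference was −0.18 with SE 0.072, and edgeR's adjusted p was 0.27. SEH1, another propeller of the Y complex, had 21.3, 20.5 and 17.8 CPM in nup50c, against 20.3, 23.9 and 22.5 CPM in Col-0, and its groups overlapped (log2 fold change −0.16, SE 0.11, edgeR adjusted p = 0.55). SEC13B had 49.3, 54.4 and 56.0 CPM in nup50c, against 51.3, 52.1 and 52.6 CPM in Col-0, on both sides of the Col-0 values (log2 fold change 0.033, SE 0.074, edgeR adjusted p = 0.89).

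The balance within each of the 3 paralog pairs was compared library by library, with too few libraries for any of these tests to pass 0.05. The log2 ratio of SEC13A to SEC13B counts was 0.110, 0.041 and −0.083 in nup50c, against 0.264, 0.302 and 0.120 in Col-0. All nup50c ratios were below all Col-0 ratios, by a mean of −0.21. An exact two-sided permutation test gave p = 0.1, the smallest that 3 against 3 libraries allow, and 0.3 after adjustment over the 3 paralog pairs compared. The ratio of NUP93A to NUP93B differed by −0.004 (mean log2 ratio 1.06 in nup50c and 1.06 in Col-0, exact permutation p = 1). How the counting dealt with reads that match both paralogs is not stated, so each pair's split is uncertain to that extent.

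None of the 5 FG nucleoporin genes of the channel was called. NUP62, the central channel protein, had 51.8, 54.3 and 52.3 CPM in nup50c, against 49.0, 50.2 and 51.3 CPM in Col-0. NUP58, one of its partners, had 19.98, 18.4 and 20.01 CPM in nup50c, against 18.4, 15.8 and 17.9 CPM in Col-0. NUP54, the other partner, had log2 fold change 0.031, beside 0.074 for NUP62 and 0.163 for NUP58, and none was called. The groups of NUP62 and NUP58 did not overlap, and those of NUP54 did. For NUP58 the margin was very small, with 18.3691 CPM in nup50c replicate 2 against 18.3635 CPM in Col-0 replicate 1. NUP62 shares 1323 bases with a gene on the other strand, AT2G44993, which had between 320 and 427 counts per library. The libraries are labelled as stranded, but the sources used here do not give the strand setting of the counting.

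NUP98A (AT1G10390, chr1:3406956-3412874, minus strand) is an FG nucleoporin found on both faces of the pore, and its 2 tables differed. It had 1929, 2513 and 0 counts in nup50c, against 3491, 3552 and 2236 counts in Col-0. Its FPKM values were 25.6, 26.96 and 28.4 in nup50c, against 25.6, 23.9 and 28.1 in Col-0. The library listed at 0 counts thus had the highest FPKM, while for the other 29 genes the ratio of count to FPKM stayed constant within 0.072 on the log2 scale. For NUP98A that ratio lay 0.71 and 0.80 above its median on the log2 scale in Col-0 replicates 1 and 2. It lay at −0.24 in Col-0 replicate 3, and at −0.098 and 0.098 in nup50c replicates 1 and 2. The count fit gave −1.04 with a 95% interval of −5.13 to 3.04 (edgeR adjusted p = 0.82). Without nup50c replicate 3 it gave −0.46 (edgeR adjusted p = 0.54), from counts that still carry these deviations. The FPKM fit gave 0.060, on the log2(FPKM + 1) scale, with an interval of −0.127 to 0.247 (limma adjusted p = 0.76).

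A short gene on the other strand, AT1G10395, overlaps NUP98A by 269 bases and was listed at 0.91 FPKM in nup50c replicate 3 and at 0 in the other 5 libraries; its part in the counts was not tested. Over the table, 112 of 19639 genes with a mean of at least 1 FPKM (0.570%) had a count of 0 beside an FPKM of at least 1 in some library. NUP98B, by contrast, gave the same picture in both tables, with 3.21, 2.85 and 2.83 FPKM in nup50c and 2.34, 2.86 and 2.60 FPKM in Col-0 (count fit 0.17, SE 0.14, edgeR adjusted p = 0.62; FPKM fit 0.14). In FPKM, NUP98A exceeded NUP98B 9.13-fold in nup50c and 9.98-fold in Col-0 (difference in log2 ratio −0.13, exact permutation p = 0.5, 0.75 adjusted over 3 pairs). In counts, over 2 nup50c and 3 Col-0 libraries, that difference was −0.62 (exact permutation p = 0.3), and it rests on the same uneven NUP98A counts.

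**Figure D4:**
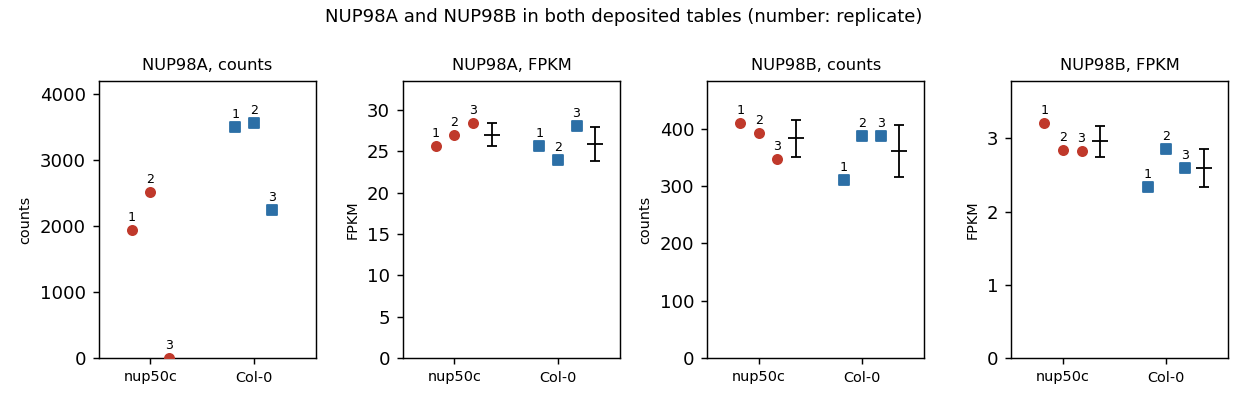
Counts and FPKM of NUP98A and NUP98B in each library, nup50c left and Col-0 right; numbers give the replicate, and bars give the mean ± SD of 3 libraries except for NUP98A counts. NUP98A is at 0 counts in nup50c replicate 3, the library with its highest FPKM, whereas the 2 tables of NUP98B look alike.

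Of the 4 membrane-associated genes, GP210 and ALADIN had log2 fold changes above 0 and NDC1 and CPR5 below, with a median of 0.025. GP210 (AT5G40480, chr5:16213036-16224177, plus strand, 36 exons), a single-pass transmembrane protein with a large lumenal part, had 74.9, 72.1 and 78.0 CPM in nup50c, against 62.4, 62.9 and 67.8 CPM in Col-0. Its groups did not overlap, but the difference was not called (log2 fold change 0.22, SE 0.067, edgeR adjusted p = 0.14). CPR5, a plant transmembrane nucleoporin known as a negative regulator of immunity, had 17.0, 13.7 and 17.2 CPM in nup50c, against 19.7, 16.9 and 17.1 CPM in Col-0. NDC1, the transmembrane anchor, had −0.031 and ALADIN, the WD-repeat protein it holds, had 0.082 on the log2 scale.

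On the cytoplasmic face, 2 of 5 genes were above 0 and 3 below, with a median of −0.023. NUP214, which docks the export helicase in yeast and animals, had 32.1, 31.9 and 32.8 CPM in nup50c, against 30.7, 25.2 and 27.5 CPM in Col-0. Its groups did not overlap (log2 fold change 0.214, edgeR adjusted p = 0.31). RAE1, an mRNA export factor, had 33.1, 33.8 and 30.3 CPM in nup50c, against 36.2, 35.996 and 33.3 CPM in Col-0, and its groups overlapped (log2 fold change −0.12, SE 0.085, edgeR adjusted p = 0.56). GLE1, the helicase activator, had −0.061, NUP88, the partner of NUP214 known in plants from immunity as MOS7, had −0.023, and CG1 had 0.141 on the log2 scale. None of the 5 was called. RAE1 and NUP96 start head to head on chromosome 1 and overlap by 21 bases, and their log2 fold changes were −0.117 and 0.115.

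Across all positions, 9 of the 30 genes had nup50c libraries all above Col-0 in CPM, and 1 (SEC13A) had them all below, where 11.7% and 11.6% of all genes tested did so. The 9 were NUP188, NUP205, NUP93B, NUP96, HOS1, NUP62, NUP58, GP210 and NUP214. Among the 29 genes with usable counts, 21 had a log2 fold change above 0, with a median of 0.102 against −0.003 over all genes. In FPKM, 22 of 30 were above 0, with a median of 0.098 against 0.013 over all genes, of which 52.8% were above 0.

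Transcript length moved with these values. Over all 16688 genes with a mean of at least 4 CPM, the log2 fold change followed the length of the longest annotated transcript. The median was −0.11 for the 1890 genes up to 1000 nucleotides and 0.195 for the 271 genes over 5000, of which 88.2% were above 0. NUP188, NUP205, GP210, NUP214 and NUP155 are the 5 nucleoporin genes in that longest class, and their median was 0.22. In that class 19 genes (7.01%) were called higher and 0 lower, and 38 of the 271 had a larger log2 fold change than NUP188, 53 a larger one than NUP205 and 107 a larger one than GP210.

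Among the 12 nucleoporin genes over 3000 nucleotides all 12 were above 0, with a median of 0.153, as were 75.1% of the 2132 genes of that size, with a median of 0.107. Of the 17 genes up to 3000 nucleotides, 9 were above 0, with a median of 0.031, against 47.5% and −0.012 for the 14556 genes of that size. The nup50c libraries were all above Col-0 in 6 of the 12 longer genes, against 26.5% of all genes over 3000 nucleotides, and in 3 of the 17 shorter ones, against 11.5% of all genes up to 3000. Across the 29 genes, the log2 fold change and log2 length had r = 0.68 (Spearman's rho 0.65), and r = 0.61 without the 2 genes farthest from the median length; genes are not independent replicates. Across all 16688 genes r was 0.18 (rho 0.28).

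In genes over 5000 nucleotides, the median deviation of a library was 0.053, 0.110 and 0.131 in nup50c, against −0.090, −0.146 and −0.045 in Col-0, so all libraries of each genotype lay on one side. An offset per library for transcript length, added after seeing the data, left NUP188 at a log2 fold change of 0.19 (edgeR adjusted p = 0.19), NUP205 at 0.16 and GP210 at 0.053, and 0 of the 30 called, where 1.09% of all genes were called higher and 0.974% lower. With it the median of the 29 genes was 0.048, with 18 above 0 and 11 below, and r with length was 0.21. By position, the medians with the offset were 0.070 for the inner ring and 0.081 for the channel without NUP98A. They were 0.034 for the outer ring, 0.007 for the membrane and −0.064 for the cytoplasmic face. The offset was fitted to these same libraries, so smaller values in long genes follow in part from the fit itself. Because the trend with length split by genotype, a technical trend and a change of long genes in nup50c cannot be told apart. The part of transcript length in the NUP188 result was not tested.

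**Figure D5:**
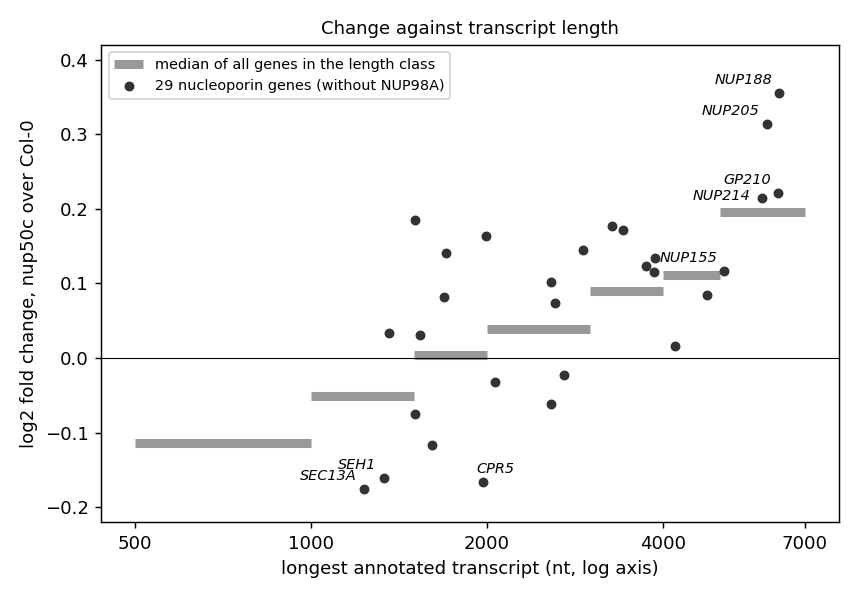
Log2 fold change, nup50c over Col-0, against the longest annotated transcript on a log axis. Points are the 29 nucleoporin genes without NUP98A, and grey bars give the median of all genes with a mean of at least 4 CPM in each length class (the first and last classes are open-ended); the medians climb from −0.11 to 0.195, and the 5 longest nucleoporin genes lie around or above the last bar except NUP155.

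The promoters are shown for NUP188 and NUP205, the scaffold genes with the largest log2 fold changes, and for the SEC13 pair, to let a reader compare the sequence upstream of each. Each is the 250 bases before the annotated start in TAIR10.1 (RefSeq), given 5′ to 3′ on the gene's own strand. Capitals mark the site II core, TGGGCC or its reverse complement GGCCCA, an element bound by TCP transcription factors.
NUP188 is read from chr4:18096219-18096468 on the minus strand, NUP205 from chr5:20804465-20804714 on the plus strand, SEC13A from chr3:128995-129244 on the minus strand and SEC13B from chr2:12824122-12824371 on the plus strand.
NUP188: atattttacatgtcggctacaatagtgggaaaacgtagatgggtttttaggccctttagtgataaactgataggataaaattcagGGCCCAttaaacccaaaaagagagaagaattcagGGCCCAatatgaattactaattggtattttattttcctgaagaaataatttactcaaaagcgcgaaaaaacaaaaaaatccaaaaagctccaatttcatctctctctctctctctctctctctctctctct
NUP205: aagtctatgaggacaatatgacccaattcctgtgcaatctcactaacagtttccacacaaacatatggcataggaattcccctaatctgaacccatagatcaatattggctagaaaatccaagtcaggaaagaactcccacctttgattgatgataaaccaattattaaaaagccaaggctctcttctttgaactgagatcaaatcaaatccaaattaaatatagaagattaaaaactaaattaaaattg
SEC13A: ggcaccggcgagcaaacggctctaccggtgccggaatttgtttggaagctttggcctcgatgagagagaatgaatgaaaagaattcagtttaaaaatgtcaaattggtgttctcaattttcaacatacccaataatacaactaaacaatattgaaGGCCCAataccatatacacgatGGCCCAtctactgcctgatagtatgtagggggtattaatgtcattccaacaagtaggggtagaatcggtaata
SEC13B: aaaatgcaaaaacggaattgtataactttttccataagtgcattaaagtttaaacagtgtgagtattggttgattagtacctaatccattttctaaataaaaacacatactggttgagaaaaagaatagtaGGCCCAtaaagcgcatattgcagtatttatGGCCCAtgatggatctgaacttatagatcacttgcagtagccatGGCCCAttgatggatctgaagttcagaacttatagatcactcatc

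The NUP188 promoter holds the core 2 times, at −165 and −131 from the start, and the SEC13A promoter 2 times, at −95 and −73. SEC13B holds it 3 times, at −119, −89 and −45, and NUP205 has no match in this window. Searched on both strands, the core was in 12 of 30 nucleoporin promoters (40%), against 13.65% of all 27443 promoters of that length; besides these 3 genes they were NUP96, NUP160, NUP133, HOS1, NUP35, NUP62, GLE1, NUP88 and NUP214. The 27443 promoters are those of all protein-coding nuclear genes, expressed in these seedlings or not, whereas all 30 nucleoporin genes were expressed. The difference in share was not tested against expressed genes. The 12 genes with the core have log2 fold changes on both sides of 0, as SEC13A and NUP188 show. The G-box CACGTG was in 2 (HOS1 and NUP98B, 6.667%, against 6.486% of all promoters) and the CCA1-binding site AAAAATCT in 2 (SEH1 and RAE1, 6.667%, against 6.687%). The telo-box AAACCCTA and the evening element AAAATATCT were in 0 of the 30, against 4.486% and 2.361% of all promoters. The NUP96 window lies within the annotated RAE1 gene and the RAE1 window within NUP96, so their matches lie inside the neighbouring gene. The other windows were not checked for this. No searched motif was an extension of another, but the 2 orientations of the site II core can overlap each other. A match is only a run of letters.

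Genes around the scaffold were followed as lists. Of the 6 basket genes, NUP50C fell and the other 5, among them NUP50A, NUP50B, NUP136 and NUA, were not called; the list's median log2 fold change was 0.044. The long basket genes NUA (6657 nucleotides), which anchors the basket, and NUP136, a plant lamina-linked basket protein, had values of 0.17 (adjusted p = 0.38) and 0.18 (adjusted p = 0.28). None of the 8 genes of the TREX-2 mRNA export complex (median −0.056), the 25 transport receptor and Ran genes (median 0.018), the 13 nuclear envelope and lamina genes (median 0.009) or the 12 cell division genes (median −0.016, 3 above 0 and 9 below) was called. Over all 5 lists, 32 of 64 genes were above 0 and 32 below, against 21 and 8 of the nucleoporin genes. That difference was not tested, and the lists were not matched to the nucleoporin genes for transcript length.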

How the data were processed

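Per the labels, stranded mRNA libraries were made from whole seedlings. Per the submitters' processing notes, HISAT2 2.0.4, HTSeq 0.6.1p1 and the TAIR10 build were used, in roles not stated there. The deposited counts are whole reads per gene, and the authors' FPKM values are fragments scaled to transcript length and library size. Members and lists were chosen with earlier results of these data known. Genes given in full were those called, the 3 members with the smallest p on each side of 0, and the 3 paralog pairs; the others are given by log2 fold change and range. Library values of non-overlapping genes and of CPR5, and the basket genes NUA and NUP136, were added after their values were seen.

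Counts were tested with edgeR 4.0.16 in R 4.3.3 (TMM scaling, filterByExpr with minimum count 10 and total 15, robust quasi-likelihood F test, Benjamini-Hochberg adjustment over 21158 genes), all 6 libraries in one fit without covariates. FPKM were tested with limma 3.58.1 on log2(FPKM + 1), over genes with a mean of at least 1. That scale understates changes of low genes. DESeq2 1.42.0, other filters and scalings, the replicate block and leaving out each library were alternatives. Libraries held 33273007 to 39574236 counts; the biological coefficient of variation was 22.0%. Fits were also run on simulated counts with the same dispersion for every gene and no trend with transcript length. Their outcome is not given here, and the length offsets were not tested on counts with such a trend. Lengths, overlaps and promoters came from TAIR10.1, with 30645 gene identifiers matched. Libraries with the same replicate number had deviations correlated at −0.024, −0.15 and −0.13.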

Additional observations from a re-analysis of the deposited data

How the results depend on the processing

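Among the nucleoporin genes called higher, 1 in the report, DESeq2 gave 2, limma on FPKM gave 0 under each of its 3 settings, both length offsets gave 0, the replicate block gave 0 and leaving out 1 library gave 0 to 1. Over the table, 236 genes were higher and 247 lower, against 662 and 595 with DESeq2, 394 and 378 with at least 10 counts in every library, 398 and 380 with counts above 0 in every library, and 43 to 172 and 65 to 266 without 1 library. The replicate block gave 12 higher and 19 lower; replicate numbers do not pair the libraries by label, and 0 of the 6 libraries correlated best with the other genotype's library of its own number. NUP188 had an adjusted p of 0.14 under the replicate block. Listed pathway genes called lower, 1 in the report, numbered 1 to 2 without 1 library. NUP98A, −1.04 in the count fit, was 0.060, 0.062 and 0.060 in the FPKM fits. Other signs turned for values near 0: with the offset for length, and for length and GC content, NUP160 was −0.035 and −0.045, NUP133 −0.083 and −0.092, and NUP155 −0.012 and −0.038. Without 1 library the log2 fold change ran from −0.046 to 0.079 for NUP133, −0.0052 to 0.087 for SEC13B, −0.120 to 0.015 for NUP35, −0.018 to 0.065 for NUP54, −0.092 to 0.078 for NDC1, −0.184 to 0.062 for GLE1 and −0.106 to 0.032 for NUP88, and the NUP93A to NUP93B difference from −0.051 to 0.077. The cause was not tested. At this depth and with 3 libraries a group, the 95% intervals of 16 of 29 nucleoporin genes reached past ±0.322 on the log2 scale.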
